A study of Mus musculus with 12 samples.

Results

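The glycine receptor genes Glra1, Glra2, Glra3 and Glrb and the gephyrin gene Gphn were followed in brain RNA from Slc6a20a-mutant mice. They were taken by symbol, and all 5 were present among the 19775 genes measured. The study asked how the loss of Slc6a20a, which encodes a plasma membrane transporter of proline and glycine, alters the brain transcriptome. The 12 mice, all males of strain C57BL/6N aged about 120 days, were 4 wild-type (WT), 4 heterozygous (HT, Slc6a20a+/-) and 4 homozygous (HM, Slc6a20a-/-) mice. The mutant allele lacks exon 3 in the germline, so every cell carries it, and all 3 genotypes came from heterozygous parents. Tissue was labelled as whole brain, and RNA was sequenced after poly-A selection. Values are normalized counts, that is, estimated read counts per gene that the authors divided by a size factor for each mouse.

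Glycine receptors are pentameric chloride channels that open when glycine binds. The alpha subunits, encoded by Glra1, Glra2 and Glra3, form the glycine binding sites, and the beta subunit, encoded by Glrb, tethers the receptor to gephyrin, the scaffold protein beneath inhibitory synapses. Glra2 is best known from the immature brain, Glra1 from the adult spinal cord and brainstem and Glra3 from the dorsal horn and retina, while mutations of human GLRA1 and GLRB cause startle disease. Gephyrin also clusters GABA-A receptors, and outside the synapse it completes the molybdenum cofactor.

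Slc6a20a itself fell stepwise with genotype, from 679 ± 70.1 (SD, n = 4) normalized counts in WT to 345 ± 29.1 in HT and 64.5 ± 9.95 in HM mice, and it passed the test between all 3 genotypes, which matches the labels. Summed normalized counts per mouse ranged from 33284951 to 33748623. Markers of cortex, striatum, neurons and glia were all present. Of the hindbrain and spinal cord markers, all HOX genes, 16 of 16 are not among the genes analysed here, and neither is Gabra6 of cerebellar granule cells. The other 5 cerebellar markers summed to 293.6 to 419 normalized counts per mouse. Hcrt, Pmch, Avp and Oxt, neuropeptide genes of the hypothalamus, had means of 265, 735, 443 and 339 over the 12 mice. The HOX markers of the hindbrain and spinal cord, where Glra1 is best known, were thus absent from the genes analysed. Other brainstem markers, of raphe and locus coeruleus, were present at low values: Tph2 at 14.1 to 88.3, Slc6a4 at 0 to 45.6 and Dbh at 3.93 to 13.2. Only 46 to 60 genes per mouse were at 0, so an absent gene need not lack RNA. Whether hindbrain was part of the tissue was not tested. In bulk tissue, fewer cells of a type and less RNA per cell cannot be told apart.

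On GRCm38, Glra1 lies on chromosome 11 from 55514238 to 55608198 (minus strand), Glra2 on X from 165129017 to 165327393 (minus), Glra3 on chromosome 8 from 55940460 to 56130070 (plus), Glrb on chromosome 3 from 80843599 to 80913660 (minus) and Gphn on chromosome 12 from 78226379 to 78684772 (plus). The 3 alpha proteins, translated from the GENCODE transcripts, shared 77.1% to 83.1% of aligned residues with each other and 48.6% to 51.1% with the beta protein. The longest stretch identical in all 3 alpha proteins was 41 residues, encoded by 123 bases across exons 7 and 8 of each alpha gene and exons 8 and 9 of Glrb. It covers the membrane segment that lines the pore and runs on into the next. The 4 coding sequences are given to show that genes with the same protein here still differ in their reads. Capitals mark bases that differ from Glra1:
Glra1: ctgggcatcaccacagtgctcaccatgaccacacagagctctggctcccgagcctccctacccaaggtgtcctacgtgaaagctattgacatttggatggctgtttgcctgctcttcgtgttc
Glra2: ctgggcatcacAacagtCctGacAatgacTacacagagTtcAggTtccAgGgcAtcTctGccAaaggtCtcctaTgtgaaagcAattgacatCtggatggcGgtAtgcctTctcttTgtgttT
Glra3: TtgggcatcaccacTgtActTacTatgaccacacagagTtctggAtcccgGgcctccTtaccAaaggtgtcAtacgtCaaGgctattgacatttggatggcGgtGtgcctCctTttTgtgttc
Glrb: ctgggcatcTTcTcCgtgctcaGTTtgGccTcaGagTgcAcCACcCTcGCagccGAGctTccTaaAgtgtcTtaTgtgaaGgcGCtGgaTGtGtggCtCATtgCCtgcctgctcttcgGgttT

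In genome coordinates, which include the intron between the exons, these are chr11:55521012-55527320, chrX:165183666-165252285, chr8:56089133-56110503 and chr3:80851082-80855788. Glra2 differed from Glra1 at 23 of the 123 bases and 0 residues, Glra3 at 18 bases and 0 residues, and Glrb at 42 bases and 19 residues. The longest run of identical bases between any pair of these sequences was 20. Over their whole annotated transcripts, the 5 genes and Glra4, a further alpha gene on X, shared 0 words of 31 bases, the word length by which Salmon indexes transcripts by default, so no such word could place a read in more than 1 of them. The kit does not mark strand, however, so reads of Gm12236, an antisense gene overlapping Glra1, and of Gm48226, whose start overlaps that of Gphn on the opposite strand, cannot be told apart from theirs where they overlap.

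The beta subunit alone carries the gephyrin binding site, in its large intracellular loop. Capitals below mark runs of at least 10 residues from the alignment alone and do not mark out that site. The stretch of Glrb below codes residues 372 to 441 of 496 (exons 9 and 10, chr3:80845132-80850991, minus strand). It is given because it is where the beta protein has residues that no alpha protein has, and capitals mark the 2 runs, of 22 and 11 residues, without a counterpart in any of the 3 alpha proteins:
Glrb: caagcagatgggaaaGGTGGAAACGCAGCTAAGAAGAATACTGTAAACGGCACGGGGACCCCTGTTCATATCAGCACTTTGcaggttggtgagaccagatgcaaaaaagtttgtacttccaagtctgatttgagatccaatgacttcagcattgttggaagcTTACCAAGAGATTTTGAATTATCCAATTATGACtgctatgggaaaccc

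Levels of different genes were compared per kb of the longest annotated transcript. Glrb was the most abundant, at 2233 ± 90.2 normalized counts per kb (SD over 12 mice), followed by Gphn at 641 ± 38.2, Glra2 at 189 ± 15.9, Glra3 at 72.4 ± 7.20 and Glra1 at 40.8 ± 5.96. This order held in 12 of 12 mice, and none of the 4 pairs of neighbours in it overlapped. The nearest pair was Glra3, with a lowest mouse at 63.1 per kb, and Glra1, with a highest mouse at 51.5. Glra4 stayed at 1.19 to 8.29 normalized counts, under the minimum of 10 set for testing.

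**Figure D1:**
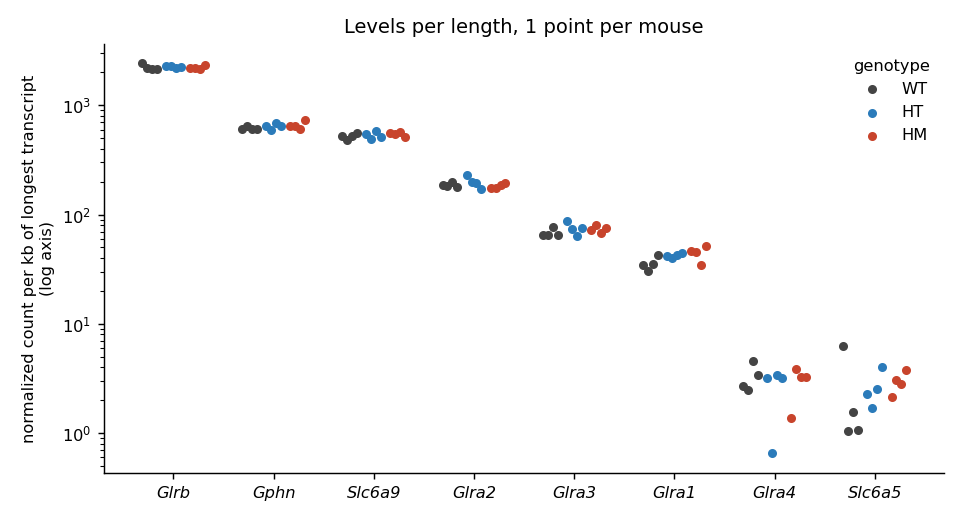
Normalized counts per kb of the longest transcript (log axis) for the 5 genes, Glra4 and the glycine transporter genes Slc6a9 and Slc6a5, with 1 point per mouse coloured by genotype. The 5 genes form separate bands from Glrb (2136 to 2418 per kb) down to Glra1 (30.7 to 51.5 per kb), and within each band the genotypes overlap.

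Glrb transcripts outnumbered those of the 3 alpha genes together by 7.41 ± 0.49 to 1 per kb over the 12 mice, and those of Gphn by 3.49 ± 0.23 to 1. With the median transcript length in place of the longest, the ratios were 13.9 and 6.60. Among the alpha genes, Glra2 made up 64.2% ± 1.39 (SD, n = 4) of the per-kb sum for WT, 62.8% ± 2.78 for HT and 60.6% ± 2.65 for HM mice. Glra3 made up 23.5% ± 0.86, 23.8% ± 2.08 and 24.6% ± 1.46. Glra1 made up 12.4% ± 1.78, 13.5% ± 1.61 and 14.8% ± 1.84. The ranges of all 3 shares overlapped between genotypes: for Glra1 they ran from 11.04% to 14.9% in WT mice, from 11.6% to 15.3% in HT mice and from 12.0% to 16.1% in HM mice. The log2 ratio of Glra1 to Glra2 averaged -2.39 ± 0.23 (WT), -2.23 ± 0.22 (HT) and -2.05 ± 0.25 (HM), and that of Glrb to Gphn 1.84 ± 0.10, 1.81 ± 0.12 and 1.76 ± 0.06.

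**Figure D2:**
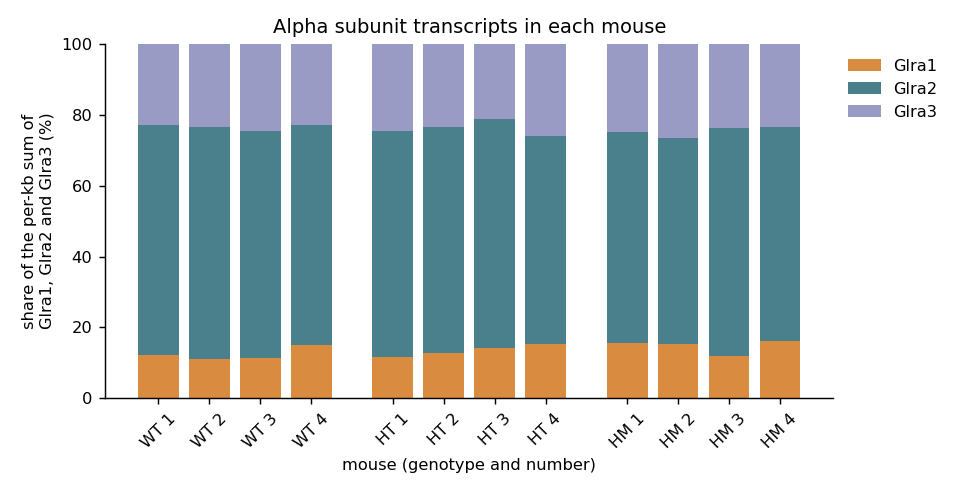
Stacked bars give the share (%) of Glra1, Glra2 and Glra3 in their per-kb sum for each of the 12 mice. Glra2 holds 58.1% to 65.4% of the sum in every mouse and Glra1 never more than 16.1%.

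None of the 5 genes passed the test between any genotypes. The HT and HM comparisons share the same 4 WT mice, so they are set side by side and are not independent. For HT against WT, 0 of 5 genes had an adjusted p under 0.05 (background 0.00555% of the 18004 genes tested), 0 had an unadjusted p under 0.05 (6.42%) and 0 had groups that did not overlap (3.73%). For HM against WT these counts were again 0 of 5 (backgrounds 0.0111%, 6.99% and 4.22%). For HM against HT they were 0 of 5 as well (0.00556%, 3.74% and 2.38% of 17986 genes). With 5 genes and backgrounds this low, 0 is close to the share of all genes. In some alternative fits, given below, the unadjusted p of Glra1, Glra2, Glra3 or Gphn fell under 0.05 (limma). The median log2 fold change of the 5 genes was 0.08 in HT and 0.08 in HM mice against WT and -0.01 between HM and HT, beside medians over all genes tested of 5.09e-05, -0.00029 and -0.00086. Throughout, 1 was added to each normalized count before taking log2, which understates fold changes of low genes, tests are limma's, and adjusted p-values are by Benjamini-Hochberg over all genes tested.

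**Figure D3:**
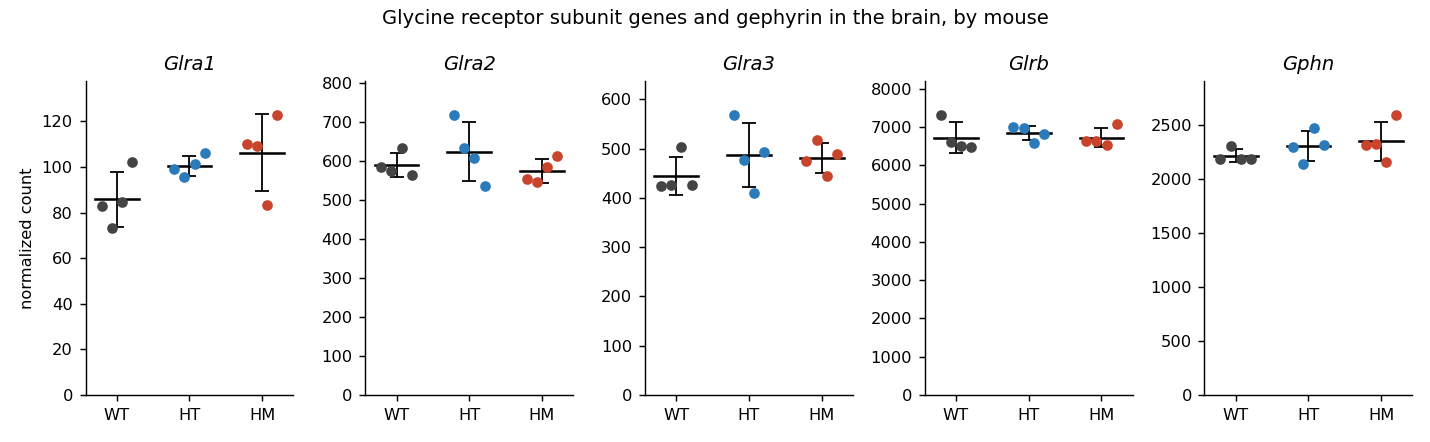
Normalized counts of the 5 genes in each mouse (points), with the mean and SD of the 4 mice of each genotype (black lines and bars) and axes from 0. The genotypes overlap in all 5 panels, and Glra1, at 73.4 to 123, is the lowest and most variable of the genes.

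Glra1 had the largest of the 5 estimates in both comparisons with WT. WT mice 1 to 4 had 83.0, 73.4, 84.6 and 102 normalized counts, HT mice 99.3, 95.5, 102 and 106, and HM mice 110.1, 109, 83.1 and 123. Of the HM mice, 3 lay above the highest WT mouse and the other lay within the WT range, whereas 1 HT mouse exceeded it. Means were 85.9 ± 12.1 in WT mice, 101 ± 4.45 in HT mice and 106 ± 16.7 in HM mice. The log2 fold change was 0.24 ± 0.13 (SE) in HT, with a 95% confidence interval from -0.05 to 0.52 and an adjusted p of 0.815 (limma). In HM it was 0.30 ± 0.15, with an interval from -0.03 to 0.64 and an adjusted p of 0.734 (limma). Between HM and HT it was 0.07 ± 0.13 (interval -0.22 to 0.36), and 0.33 ± 0.20 with a block for animal numbers that start alike. That blocked value rests on HM mouse 4, the highest of all in Glra1, against HT mice 1 and 2. The intervals reach from near no difference to a fold of 1.44 in HT and 1.55 in HM mice, so differences up to those sizes lay within the error.

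Glra2 varied most within HT mice. Its normalized counts were 585, 573, 633 and 563 in WT, 718, 632, 607 and 537 in HT, and 553, 547, 586 and 611 in HM mice. The HT group held both the highest and the lowest of the 12 mice, and all HM mice lay below the HT mean. Log2 fold changes were 0.08 ± 0.08 in HT (interval -0.10 to 0.26) and -0.04 ± 0.07 in HM mice (-0.18 to 0.11), each with an adjusted p over 0.9 (0.906 and 0.937, limma). Between HM and HT the log2 fold change was -0.11 ± 0.08 (-0.29 to 0.07).

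Glra3 had 425, 426, 503 and 426 normalized counts in WT mice, 569, 477, 410.4 and 494 in HT mice and 475, 518, 445 and 488 in HM mice. As for Glra2, mouse 1 was the highest HT mouse, and 1 WT mouse (number 3) stood apart from the other 3, which lay between 425 and 426. Log2 fold changes against WT were 0.13 ± 0.10 in HT (-0.08 to 0.34, adjusted p = 0.873 by limma) and 0.11 ± 0.08 in HM mice (-0.06 to 0.29, adjusted p = 0.798 by limma). HM and HT differed by -0.01 ± 0.09.

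Glrb, the synaptic partner of the alpha subunits, was the steadiest gene, with a coefficient of variation of 4.04% over the 12 mice. It had 7325, 6613, 6497 and 6469 normalized counts in WT mice, 7006, 6977, 6597 and 6808 in HT mice and 6629, 6629, 6540.2 and 7087 in HM mice. WT mouse 1 and HM mouse 4 were the 2 highest mice, and every HT and HM mouse lay within the WT range. The log2 fold change was 0.03 ± 0.05 in HT (-0.07 to 0.13, adjusted p = 0.943, limma) and 0.000178 ± 0.05 in HM mice (-0.10 to 0.10, adjusted p = 1.00, limma). Folds under 0.952 or over 1.09 in HT, and under 0.933 or over 1.07 in HM mice, lay outside these intervals.

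The same 2 mice were also the highest in 2 genes of serotonin neurons. Slc6a4, the serotonin transporter gene, had 45.6 normalized counts in WT mouse 1 and 31.8 in HM mouse 4 and at most 13.3 in the other 10. Tph2, which encodes the serotonin-synthesizing enzyme of these neurons, had 88.3 and 73.9 in them and at most 33.5 elsewhere. Of 6 raphe and locus coeruleus markers, 3 (Fev, Slc6a2 and Phox2a) are not among the genes analysed here, and the sum of the others ranged from 36.1 to 147 in WT mice, from 25.9 to 44.6 in HT mice and from 23.8 to 117 in HM mice. Dbh, the remaining marker, did not follow the same order: it had 13.2 in WT mouse 1, 12.4 in HT mouse 2 and 11.1 in HM mouse 4. Whether such markers bear on Glrb was not tested. Without WT mouse 1 and HM mouse 4, which are also the 2 mice highest in Glrb itself, log2 fold changes in HM against WT were 0.02 ± 0.03 for Glrb, 0.02 ± 0.05 for Gphn, 0.21 ± 0.18 for Glra1, -0.07 ± 0.07 for Glra2 and 0.09 ± 0.09 for Glra3.

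Gphn had 2184, 2305, 2185 and 2189 normalized counts in WT mice, 2294, 2136, 2473 and 2319 in HT mice and 2318, 2322, 2155 and 2596 in HM mice. In HM mice 3 of 4 lay above the highest WT mouse and 1 below the lowest, while in HT mice 2 lay above and 1 below. Log2 fold changes against WT were 0.06 ± 0.05 in HT (-0.05 to 0.16, adjusted p = 0.896 by limma) and 0.08 ± 0.05 in HM mice (-0.04 to 0.20, adjusted p = 0.797 by limma). Between HM and HT the value was 0.02 ± 0.06 (-0.10 to 0.15). With a block for animal numbers that start alike, it was 0.23 ± 0.07 (adjusted p = 0.798, limma), outside that interval. In that fit HM and HT mice meet in only 1 block, of HM mouse 4 and HT mice 1 and 2.

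**Figure D4:**
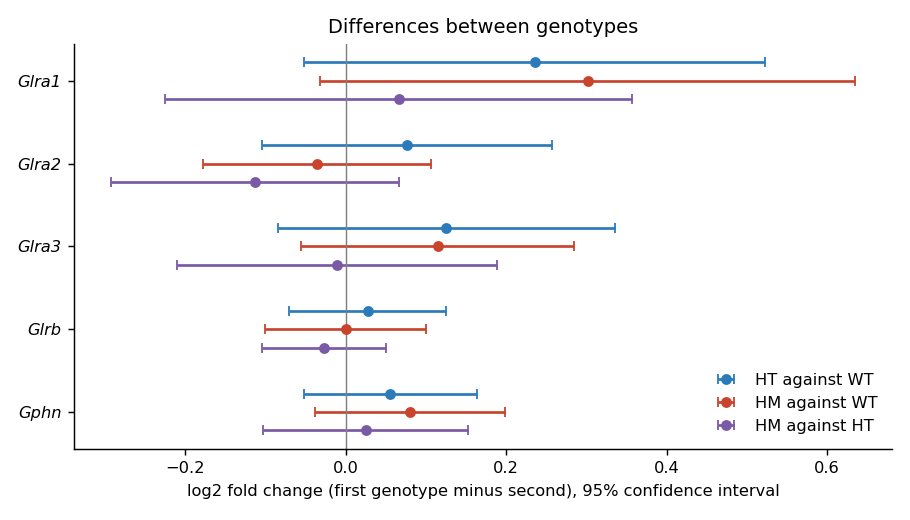
Log2 fold change of each gene (points) with its 95% confidence interval (bars) for HT against WT, HM against WT and HM against HT. All 15 intervals include 0, and those of Glra1, up to 0.64 in HM against WT, are the widest.

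Summed markers of other regions and cells were set beside these values, with no test. The sum of the 6 olfactory bulb markers ranged from 563 to 870.5 (WT), from 522 to 656 (HT) and from 828 to 1381 (HM), with none of the 6 at 0, so that all HM mice exceeded all HT mice. The 6 astrocyte markers summed to 105119 to 117863 in WT mice, 117491 to 122688 in HT mice and 117171 to 120900.0 in HM mice, and the 5 erythrocyte markers to 7780 to 21984, 6495 to 8717 and 5859 to 29022. Both sums overlapped between the genotypes. The 6 microglia markers summed to 5289 to 6513 (WT), 5922 to 6202 (HT) and 5110.4 to 5826 (HM), without overlap between HT and HM mice. Among these 6 genes only Tmem119 had HT and HM mice apart, at 636 to 687 and 551 to 629, whereas each olfactory bulb marker did. Of all genes tested, 2.38% had groups apart between HM and HT. The sums of the lists for cortex, striatum, neurons, oligodendrocytes, choroid plexus, meninges and cerebellum overlapped between all 3 genotypes. Of 6 pituitary markers only Pomc, at 29.2 to 109.6, is among the genes analysed here. The part of these markers in the values of the 5 genes was not tested.

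Over the 12 mice and 10 pairs of genes, Pearson's r on the log2 scale ranged from -0.10 to 0.60. The highest was that of Glra1 with Gphn (r = 0.60, rho = 0.69, and r = 0.64 in the 10 mice left without the 2 farthest from the median of Glra1). All other pairs had an r between -0.10 and 0.42. These r values describe mice that also share genotype and the regions dissected.

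Among 18005 other genes with a mean of at least 10, those whose values ran most like Glra1 were Zeb2 (r = 0.90, n = 12 mice), Tnfaip8l3 (0.86) and Fyb2 (0.86). For Glra2 they were B230219D22Rik (0.90), Gtf2f2 (0.85) and Tceal9 (0.85), and for Glra3 Ankrd26 (0.93), Zfp809 (0.92) and Kcnv1 (0.88), a potassium channel subunit gene. For Glrb they were Mpc1 (0.93), a carrier of pyruvate into mitochondria, Mat2b (0.93) and Gm43674 (0.92), and for Gphn A430010J10Rik (0.87), Htr3a (0.87), a serotonin-gated channel subunit gene, and Magi1 (0.86). None of the 5 genes was on another's list of 3. As the highest of so many, these r values are inflated by their selection.

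The genes around glycine supply gave 3 of 3 estimates above 0 in both mutant genotypes, and 0 of 3 passed the adjusted test. Slc32a1, the vesicular transporter that loads GABA and glycine, had 4010.2, 4039.9, 3849.8 and 3908 normalized counts in WT mice, 4452, 3786, 4512 and 4472 in HT mice and 4616, 4329.9, 4290.4 and 3834 in HM mice. In each mutant group 3 of 4 mice lay above all WT mice and 1 below all of them. Its log2 fold change was 0.12 ± 0.05 in HT (adjusted p = 0.772, limma) and 0.11 ± 0.05 in HM mice (adjusted p = 0.724, limma), and its unadjusted p was under 0.05 in HT mice. That was lost in 4 of 8 other settings and in 7 of 8 fits without 1 mouse. The log2 fold change itself ran from 0.111 to 0.136 in those settings and from 0.096 to 0.181 without 1 mouse. It was highest without HT mouse 2 (unadjusted p = 0.00086, adjusted p = 0.776, limma).

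Slc6a9, the glial glycine transporter gene, ran at 533 ± 31.6 normalized counts per kb of the longest transcript, between Gphn and Glra2, and above Gphn (1463 against 694) with the median transcript length, with log2 fold changes of 0.03 ± 0.06 in HT and 0.06 ± 0.06 in HM mice. Slc6a5, which marks glycine-releasing neurons, had only 7.42 to 44.5 normalized counts, the highest again in WT mouse 1. Its log2 fold changes were 0.41 ± 0.48 in HT and 0.61 ± 0.47 in HM mice. Both depend on WT mouse 1. The other WT mice had 7.42 to 11.02 normalized counts, HT mice 12.04 to 28.26 and HM mice 15.26 to 26.67. Every mutant mouse thus lay below WT mouse 1 and above all other WT mice. Fold changes of Slc6a5 without WT mouse 1 are not given here. Per kb Slc6a5 came to 2.70 ± 1.48 against 189 ± 15.9 for Glra2, so transcripts of the receptor were far more abundant than those of this transporter.

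Of 5 GABA-A receptor subunit genes whose products bind or accompany gephyrin at synapses, 0 passed the adjusted test in any comparison. At an unadjusted p under 0.05, 1 of 5, Gabrb2, was higher in HT and 0 in HM mice. Gabrb2 had 3636, 4753, 4261 and 4113 normalized counts in WT mice, 4608, 4888, 4406 and 4985 in HT mice and 4645, 4858, 4211 and 4858 in HM mice. WT mouse 1 was the lowest of all and WT mouse 2 lay among the mutants. Its log2 fold change was 0.18 ± 0.07 in HT (adjusted p = 0.770, limma) and 0.15 ± 0.07 in HM mice (adjusted p = 0.724, limma). In HT it was 0.10 ± 0.05 with the animal number block and 0.11 ± 0.06 without WT mouse 1. Its unadjusted p was no longer under 0.05 in 2 of 8 other settings and in 4 of 8 fits without 1 mouse.

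Gabra2 fell into 2 separate levels within each genotype, at 1993 to 2399 in 7 mice and 3088 to 3456 in the other 5, of which 2 were WT, 1 was HT and 2 were HM.

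Of 12 partners of gephyrin and of the inhibitory postsynapse, 0 passed the test at an adjusted or an unadjusted p under 0.05 in any comparison. Estimates were above 0 for 8 in HT and 7 in HM mice, with medians of 0.02 and 0.02. Dynll2, a dynein light chain that binds gephyrin, was the most abundant at 17948 to 20405 normalized counts, with log2 fold changes of 0.03 ± 0.04 in HT and 0.02 ± 0.04 in HM mice. Pacsin1, which encodes a membrane-bending protein of endocytosis, gave 0.07 ± 0.04 and 0.08 ± 0.04. Pfn2, an actin-binding profilin, gave 0.02 ± 0.04 and -0.02 ± 0.04.

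Lhfpl4, which links GABA-A receptors to neuroligin-2, was at 4800.2 to 5047 in WT mice, 5103 to 5153 in HT mice and 5127 to 5293 in HM mice, without overlap between WT and either mutant genotype. Its log2 fold changes were 0.06 ± 0.04 and 0.07 ± 0.03 (adjusted p = 0.839 and 0.724, limma).

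Of the 9 molybdenum cofactor genes, which act with gephyrin in its other role, 8 were tested and 0 passed at either threshold. Estimates were below 0 for 6 of 8 in HT and 6 of 8 in HM mice. Mocs2, whose products make molybdopterin, the substrate of gephyrin, had 1296, 1232, 1249.7 and 1277 normalized counts in WT mice, 1164, 1222, 1183 and 1213 in HT mice and 1221, 1186, 1212 and 1224 in HM mice. Every mutant mouse lay below every WT mouse, and the log2 fold change was -0.08 ± 0.05 in HT and -0.06 ± 0.05 in HM mice (adjusted p = 0.825 and 0.808, limma). Suox, the gene of sulfite oxidase, an enzyme that needs the cofactor, gave -0.03 ± 0.08 and -0.08 ± 0.08. Marc2, a mitochondrial molybdenum enzyme, gave -0.04 ± 0.07 and -0.14 ± 0.08, and Xdh, the xanthine dehydrogenase gene, -0.18 ± 0.17 and -0.18 ± 0.16.

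The chloride transporters that set whether these channels inhibit did not pass the test either. Slc12a5, which encodes the chloride extruder KCC2, had log2 fold changes of 0.01 ± 0.04 in HT and 0.01 ± 0.03 in HM mice. Slc12a2, which encodes the importer NKCC1, gave -0.05 ± 0.04 and -0.06 ± 0.05.

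Over all 30 tested genes of these 5 lists, groups did not overlap for 2 (6.67%) in HT against WT, beside a background of 3.73%, and for 2 (6.67%) in HM against WT, beside 4.22%. Between HM and HT this held for 0 of 30. An unadjusted p under 0.05 was reached by 2 of 30 (6.67%, background 6.42%) in HT, by 0 of 30 (background 6.99%) in HM against WT and by 0 of 30 between HM and HT. The genes with groups apart, Lhfpl4 and Mocs2 in both comparisons, differed by small amounts, with log2 fold changes of at most 0.08 in size.

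**Figure D5:**
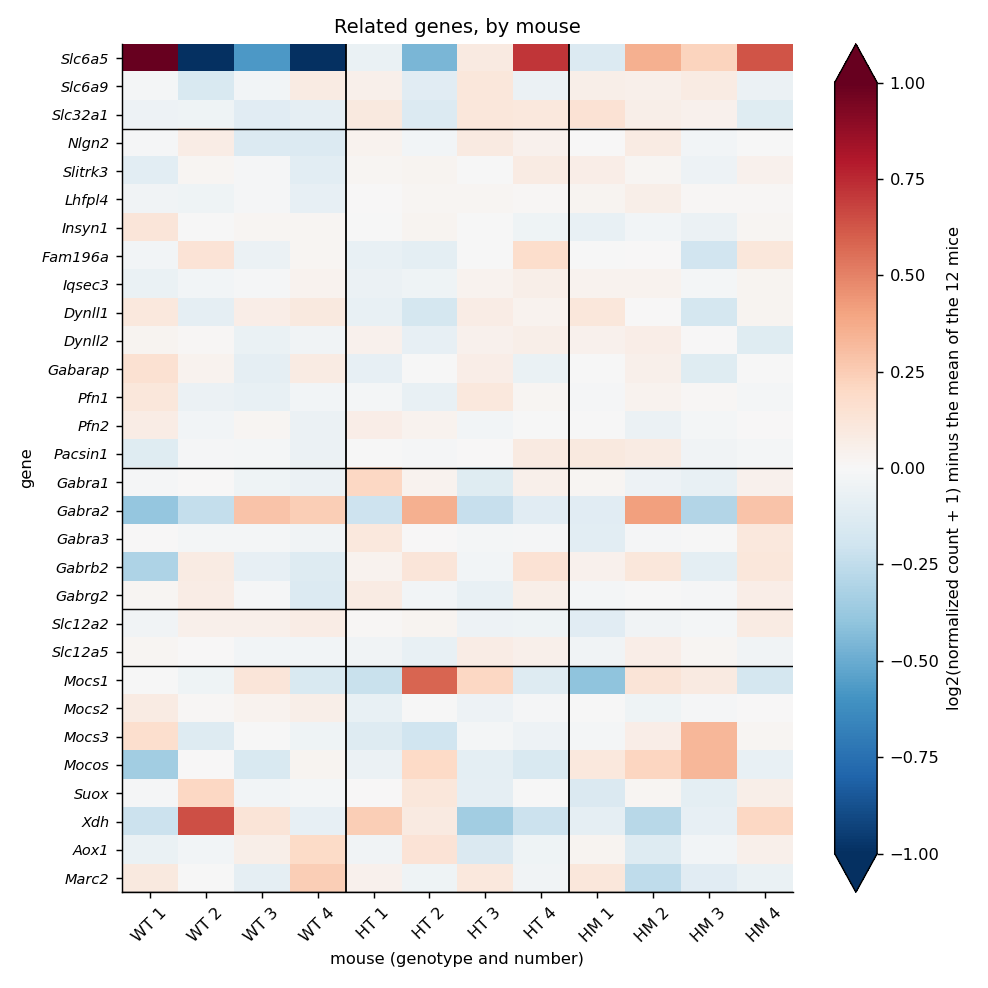
Heat map of log2(normalized count + 1) minus the mean of the 12 mice, for the 30 tested genes (rows, with lines between the 5 lists) in each mouse (columns, with lines between genotypes). Slc6a5 in WT mice and Gabra2 in 5 mice stand out, and most other cells lie near 0.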

How the data were processed

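RNA from 12 male mouse brains (4 WT, 4 HT, 4 HM) was sequenced by the authors on an Illumina NovaSeq as paired reads of 100 bp. Per the methods and the submitters' processing notes, the authors quantified reads on GRCm38 with Salmon 1.1.0 and GC bias correction, imported them with tximport and normalized them with DESeq2 1.30.1. The deposited signal values are counts divided by size factors. At most 46.6% of the low values of a mouse were whole multiples of 1 read (tolerance 0.05 of a read), so reads were not recovered, depth is unknown, and count models were not fitted. Column names gave genotype and mouse number, with the homozygous mice under KO.

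Symbols, positions, lengths and transcripts came from GENCODE M21 (GRCm38), where 19758 of 19775 identifiers were found. Proteins were translated and aligned with mafft 7.526. Each pair of genotypes (4 against 4 mice) was fitted in limma 3.58.1 under R 4.3.3, two-sided and with a mean-variance trend, on log2(normalized count + 1). Genes entered a fit if their mean over its mice reached 10, with a Benjamini-Hochberg threshold of 0.05. The test was tested on simulated data. Levels per kb, shares, ratios, marker sums and correlations are descriptions without a test.

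The 5 genes and the gene lists were chosen with earlier results of these data known. Some genes of the lists are not reported here and were left out of their counts. Named genes are the 5, Slc6a20a, in each list those with an unadjusted p under 0.05 and otherwise up to 4 with the highest mean, and the 3 genes most correlated with each of the 5. Glra4, Slc6a5, Slc6a9, Gabra2, Lhfpl4, Tmem119, Dbh, the overlapping genes and the serotonin and hypothalamic markers were named after their values were seen. Mice with the same number did not deviate together (r from -0.0658 to 0.0869 over 12 pairs). Alternatives changed the pseudocount, filter, samples in the fit, blocks, normalization, variance prior and transcript length, or left out mice.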

Additional observations from a re-analysis of the deposited data

Results flagged for a closer look

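In groups of 4 mice, the extreme mouse was compared with its neighbour: it was singled out where that gap exceeded Dixon's 95% critical share of the group's range, which chance gives in about 1 group in 20. Of 105 groups (3 genotypes of the 5 genes and the 30 related genes), 12 held such a mouse. Among the 5 genes these were Glra3 in WT mouse 3 (503 normalized counts, the others at 425 to 426), Glrb in WT mouse 1 (7325, the others at 6469 to 6613), Glrb in HM mouse 4 (7087, the others at 6540.2 to 6629) and Gphn in WT mouse 2 (2305, the others at 2184 to 2189).

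Among the related genes, Slc6a5 in WT mouse 1 lay furthest off by fold (44.5 normalized counts, the others at 7.42 to 11.02). HT mouse 2 was singled out 3 times, for Slc32a1 (3786, the others at 4452 to 4512), Dynll2 (18425, the others at 20043 to 20259) and Gabra2 (3321, the others at 2219.7 to 2398). The rest were Gabra3 in HT mouse 1 (4552), Pacsin1 in HT mouse 4 (16254), Iqsec3 in HM mouse 3 (8204) and Suox in WT mouse 2 (419).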

How the results depend on the processing

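For the 5 genes, 245 alternative values of the 15 log2 fold changes were computed, and 0 reached an adjusted p under 0.05 (limma, smallest 0.640). Direction was kept in 232. It reversed in 13, all at 0.0668 or less in size. With a block for animal numbers that start alike, HM against WT turned to 0.0467 for Glra2 and -0.0317 for Glrb, and HM against HT to 0.0195 for Glrb. The same block moved HM against HT from 0.02 to 0.23 for Gphn and from 0.07 to 0.33 for Glra1, and HT against WT from 0.03 to 0.06 for Glrb. In these blocked fits HM and WT mice meet only as WT mouse 1 with HM mouse 3 and WT mouse 2 with HM mouse 4. HM and HT mice meet only as HM mouse 4 with HT mice 1 and 2. With quantile normalization, HM against WT turned to -0.0231 for Glrb, and HT against WT fell to 0.00195. Leaving out 1 mouse at a time, Glrb in HM against WT ranged from -0.0255 to 0.0418, and HM against HT ranged from -0.0900 to 0.0668 for Glra3, from -0.0246 to 0.0649 for Gphn and from -0.00772 to 0.179 for Glra1. HT against WT ranged from 0.00622 (without HT mouse 1) to 0.146 (without HT mouse 4) for Glra2 and from 0.0480 (without HT mouse 1) to 0.205 (without HT mouse 3) for Glra3. For Gphn it ranged from 0.0214 (without HT mouse 3) to 0.0917 (without HT mouse 2), and for Glrb from 0.00919 to 0.0689. The adjusted p of Glra1 (limma) ranged from 0.813 to 0.960 in HT and from 0.640 to 0.884 in HM against WT in these fits. Its unadjusted p (limma) ranged from 0.033 to 0.252 in HT and from 0.016 to 0.195 in HM against WT. That of Glra3 ranged from 0.044 to 0.615 and from 0.0419 to 0.373, and that of Gphn in HM from 0.042 to 0.539. For Glra2 in HM against HT it ranged from 0.034 to 0.584. Glra1 was also under 0.05 in HT without the variance trend (0.043) and in HM in one fit of all 12 mice (0.045). Without HM mouse 3, the HM mouse lowest in Glra1 and Gphn, their log2 fold changes against WT were 0.41 and 0.12, and without HM mouse 4 that of Gphn was 0.03.

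Counts over all genes moved more: in HT against WT from 1 to 0 without the variance trend and to between 1 and 5 without 1 mouse, in HM against WT from 2 to 1 with the replicate block or without the trend and to 3 in one fit of all 12 mice or without HM mouse 3 or 4, and in HM against HT from 1 to 2 without a filter, to 3 with the animal number block and to between 1 and 7 without 1 mouse. The cause was not tested. The replicate block changed no call among the 5 genes. Mouse numbers mark no shared litter or day in the labels.

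With the median transcript length in place of the longest, the order of the 5 genes per kb held in 12 of 12 mice, while levels moved to 47.9 (Glra1), 93.4 (Glra3), 4569 (Glrb) and 694 (Gphn) per kb, the Glra2 and Glra3 shares to 57.2% and 28.2%, Glrb over the alpha sum to 13.9, Glrb over Gphn to 6.60 and its log2 to 2.72. DESeq2 was not run, since the table holds no counts. The fit without WT mouse 1 and HM mouse 4 was chosen after seeing the data.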
